A study of Mus musculus with 8 samples.

Results

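The enolase genes of the mouse were followed in regulatory T cells with and without Raptor. They were taken from the platform's annotation by symbol, and 2 of the 3 genes sought, Eno2 and Eno3, had a single-gene probe set, out of 17097 genes in all. The annotation used here pairs no probe set with Eno1. It does list 1 probe set for Eno1b, a gene that carries Eno1 among its synonyms in RefSeq, and 2 for Eno4. Eno1b and Eno4 are given beside the members under the names in the annotation, and the Eno1b probe set is not taken as a measurement of Eno1. The family was chosen because Eno2 rose strongly in this same comparison, so the genotype differences of the enolases below are a description and carry no p-value.

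The cells were CD4+CD25+ regulatory T cells sorted from spleen and peripheral lymph nodes and used untreated, with RNA from each sample on 1 single-channel array. In 4 samples the genotype was CD4(cre)Raptor(fl/fl), called RaptorKO here, in which Cre under Cd4 control recombines floxed alleles of the gene for Raptor, the scaffold of the kinase complex mTORC1. The other 4 samples were WT. All 8 were on the C57Bl/6J background; the labels give no age and do not say that each sample is its own animal, so the p-values below cover the spread among these 8 samples, part of which may be technical. In both genotypes, replicates 3 and 4 carried a male and replicates 1 and 2 a female pattern of sex-linked transcripts, so values within each of these sets are given as well. Cd4-driven Cre acts in the T cell lineage from the thymus onward and is not restricted to regulatory T cells.

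Enolase converts phosphoglycerate into phosphoenolpyruvate in glycolysis, the step between phosphoglycerate mutase and pyruvate kinase. The active enzyme is a dimer. In mammals Eno1 encodes the broadly expressed alpha subunit, Eno2 the gamma subunit that is best known from neurons and neuroendocrine cells, and Eno3 the beta subunit that is typical of skeletal muscle. Eno4 encodes an enolase-related protein known from sperm.

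The start-site windows of both measured members, the gene with the large rise and its sister gene with a small difference, are printed because enolase genes are among the known targets of hypoxia-inducible factors. Each runs from 250 bases before to 50 bases after an annotated start site, from RefSeq on GRCm38.p6. The Eno2 window is chr6:124769624-124769923 on the minus strand and the Eno3 window is chr11:70656926-70657225 on the plus strand. Capitals mark matches, on either strand, to the hypoxia response cores ACGTG and GCGTG, to the E-box CACGTG, which contains ACGTG, or to the GC box GGGCGG.
Eno2: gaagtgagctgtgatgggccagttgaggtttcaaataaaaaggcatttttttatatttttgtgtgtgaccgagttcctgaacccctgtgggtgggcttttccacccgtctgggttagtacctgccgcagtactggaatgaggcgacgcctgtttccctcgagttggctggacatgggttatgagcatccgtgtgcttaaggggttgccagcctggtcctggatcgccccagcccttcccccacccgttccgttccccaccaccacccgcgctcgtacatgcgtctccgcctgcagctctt
Eno3: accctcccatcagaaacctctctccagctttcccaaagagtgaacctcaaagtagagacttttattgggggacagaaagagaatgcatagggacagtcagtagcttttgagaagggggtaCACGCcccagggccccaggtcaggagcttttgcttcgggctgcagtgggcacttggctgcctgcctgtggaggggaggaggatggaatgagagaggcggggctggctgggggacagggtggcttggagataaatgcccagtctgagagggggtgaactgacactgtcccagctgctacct
The Eno2 window held none of these 4 motifs, and the Eno3 window held 1, a GCGTG on the minus strand 130 bases before the start site. Among 32851 windows of this length, 19.6% held ACGTG, 32.4% held GCGTG, 7.15% held CACGTG and 35.7% held GGGCGG. RefSeq gives 3 windows for Eno1, of which 2 largely overlap; each held GCGTG at 2 places, and the 2 overlapping ones also held GGGCGG at 3, with the same sites counted in both. A match is a string of letters and not a binding site, and the absence of one says only that these letters are not in the window.

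Eno2 was far brighter on every RaptorKO array than on any WT array. Its log2 signal was 7.71, 8.13, 7.52 and 7.54 in RaptorKO 1 to 4, against 4.82, 5.58, 5.22 and 5.71 in WT 1 to 4. The lowest RaptorKO value lay 1.80 above the highest WT value. The means were 7.73 ± 0.28 in RaptorKO and 5.33 ± 0.40 in WT (SD, n = 4 each), a difference of 2.39 (SE 0.19 in the limma fit), or 5.25-fold. This was the largest rise among the 11413 genes tested. Hpgds, which encodes a prostaglandin D2 synthase, came next with 2.18.

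Within its array the Eno2 probe set stood between percentiles 85.9 and 89.8 of all probe sets in RaptorKO, against 41.7 and 58.4 in WT. Genes were tested only if they exceeded the 40th percentile of signal, 4.69 to 4.81 on the log2 scale, on at least 4 arrays. Eno2 did so on all 8, but WT 1, at 4.82, was only just above the 4.75 of its array. The 5.25-fold difference is therefore measured against dim WT signal. The WT arrays differed more among themselves (SD 0.40) than the RaptorKO arrays did (SD 0.28).

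Eno3 was also brighter in RaptorKO, by much less. Its log2 signal was 7.52, 7.67, 7.0 and 7.13 in RaptorKO 1 to 4, against 6.88, 6.66, 6.90 and 6.90 in WT 1 to 4. The groups did not overlap, but only 0.10 separated RaptorKO 3 from the highest WT array. The means were 7.33 ± 0.32 in RaptorKO and 6.84 ± 0.12 in WT (SD, n = 4 each), a difference of 0.50 (SE 0.15), or 1.41-fold. The limma fit over all genes placed 193 genes above it by difference. Eno3 stood between percentiles 79.6 and 85.5 of its array in RaptorKO, against 74.8 and 77.4 in WT.

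Both measured members had groups that did not overlap, where 8.82% of all genes tested did so in either direction and 3.73% did so with RaptorKO higher. The fit called 1 of the 2, Eno2, at a Benjamini-Hochberg adjusted p under 0.05, where 1.96% of all genes were called and 0.824% were called higher. As the family was picked on this contrast, nothing is read from these counts.

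The Eno1b probe set was bright in both genotypes and overlapped between them. Its log2 signal was 9.80, 9.67, 9.53 and 9.48 in RaptorKO 1 to 4, against 9.78, 9.67, 9.94 and 9.92 in WT 1 to 4. RaptorKO 1 and 2 lay close to WT 1 and 2, while RaptorKO 3 and 4 were the 2 lowest arrays and WT 3 and 4 the 2 highest. The means were 9.62 ± 0.15 in RaptorKO and 9.83 ± 0.12 in WT (SD, n = 4 each), a difference of -0.21 (SE 0.11). The suffix of this probe set marks probes that can match other transcripts, so signal from Eno1 and Eno1b, which are close copies, may not be separable on it. It lay between percentiles 97.2 and 97.8 of its array in RaptorKO and between 97.6 and 98.0 in WT.

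Neither Eno4 probe set reached the 40th percentile on any array, so Eno4 was not tested. The brighter averaged 4.24 ± 0.15 in RaptorKO and 4.24 ± 0.18 in WT, and the dimmer 3.20 ± 0.15 in RaptorKO and 3.20 ± 0.17 in WT (SD, n = 4 each). Signals of different probe sets are not on a common scale, so these levels do not say which enolase transcript was most abundant in the cells.

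**Figure D1:**
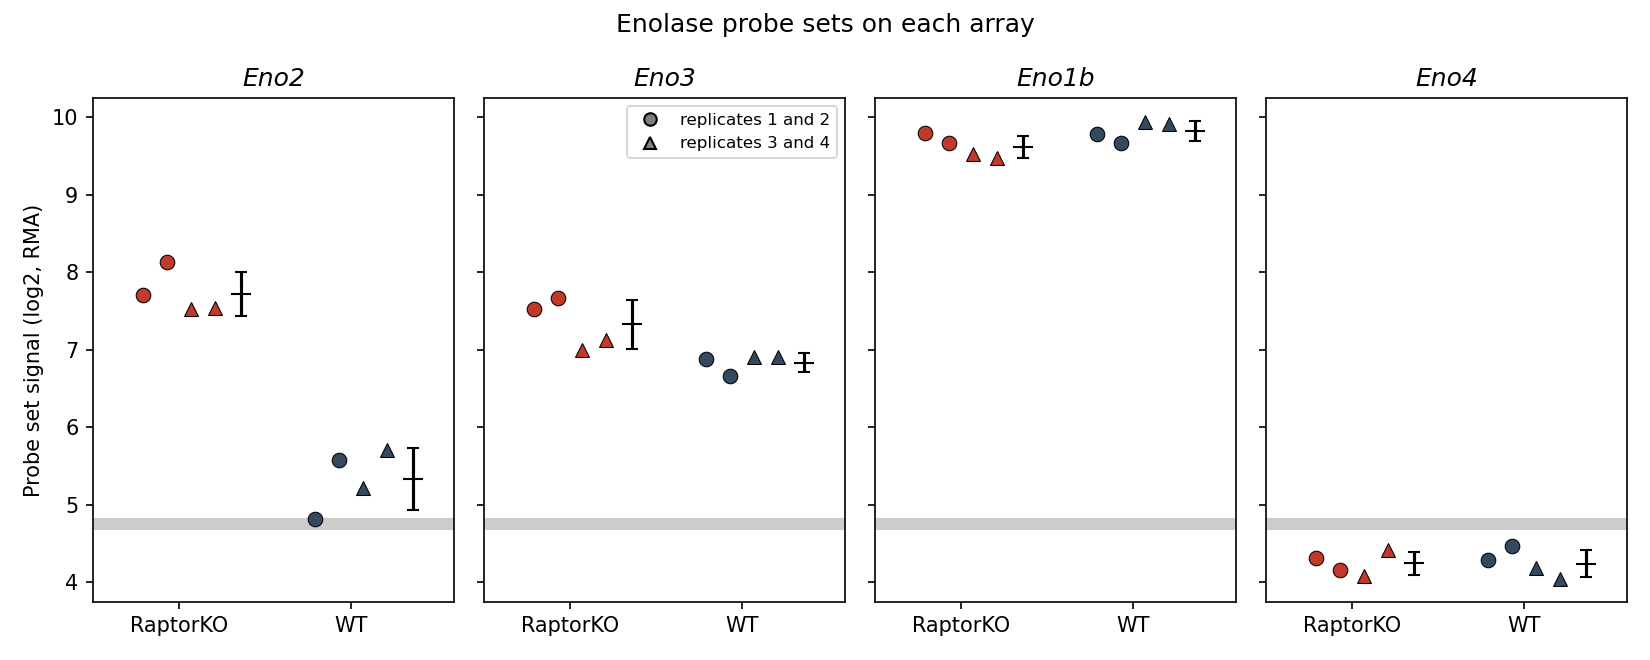
Log2 probe set signal of Eno2, Eno3, Eno1b and the brighter Eno4 probe set on each array, RaptorKO left of WT. Circles are replicates 1 and 2, triangles replicates 3 and 4, bars the mean ± SD of 4 arrays, and the grey band the arrays' 40th percentiles (4.69 to 4.81). The Eno2 groups are 1.80 apart, the Eno3 groups 0.10 apart, and the Eno1b and Eno4 groups overlap.

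What can be set side by side is the change within the same RNA. The log2 signal of Eno2 minus that of Eno1b was -2.09, -1.54, -2.01 and -1.93 in RaptorKO 1 to 4, against -4.95, -4.10, -4.71 and -4.20 in WT 1 to 4. The means were -1.89 ± 0.25 in RaptorKO and -4.49 ± 0.41 in WT (SD, n = 4 each). The 2 probe sets thus drew closer by 2.60 in RaptorKO, with no overlap between genotypes. That follows from the rise for which Eno2 was picked: its groups lay 1.80 apart, while Eno1b ran only from 9.48 to 9.94. Nothing more is read from the shifts that involve Eno2. Eno2 minus Eno3 averaged 0.40 ± 0.14 in RaptorKO and -1.50 ± 0.45 in WT, a shift of 1.90. Eno3 minus Eno1b averaged -2.29 ± 0.22 in RaptorKO and -2.99 ± 0.06 in WT, a shift of 0.70.

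The sex-linked pattern was clear in both genotypes. Xist was 5.04 to 5.62 in replicates 3 and 4, which had signal from the Y-linked genes Kdm5d, Eif2s3y and Uty, and 10.88 to 11.18 in replicates 1 and 2. What else the sets share is not given in the labels. With genotype in the limma fit, replicates 3 and 4 differed from replicates 1 and 2 by -0.06 for Eno2 (SE 0.20, adjusted p = 0.96), by -0.20 for Eno3 (SE 0.14, adjusted p = 0.739) and by -0.02 for Eno1b (SE 0.11, adjusted p = 0.984). None of the enolases tested passed, where 0.158% of all genes did.

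The genotype difference itself was smaller or more negative within replicates 3 and 4 for each of these probe sets. For Eno2 it came to 2.06 in replicates 3 and 4 and to 2.72 in replicates 1 and 2. The Eno3 difference came to 0.17 in replicates 3 and 4 and to 0.83 in replicates 1 and 2, and so moved by more than the spread between replicates. For Eno1b it came to -0.42 in replicates 3 and 4 and to 0.0090 in replicates 1 and 2, so the direction of its mean difference rests on replicates 3 and 4. The limma interaction of genotype and set was -0.66 for Eno2 (SE 0.36, adjusted p = 0.492), -0.66 for Eno3 (SE 0.20, adjusted p = 0.334, unadjusted p = 0.00733) and -0.43 for Eno1b (SE 0.18, adjusted p = 0.415, unadjusted p = 0.0378). None passed. In that limma test 0 of 11413 genes (0%) passed. Of these genes 1304 had an unadjusted p under 0.05, more than the share of 0.05 that a test gives without any interaction. Each set holds 2 arrays of each genotype, so the lack of a pass does not say that the changes were equal.

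**Figure D2:**
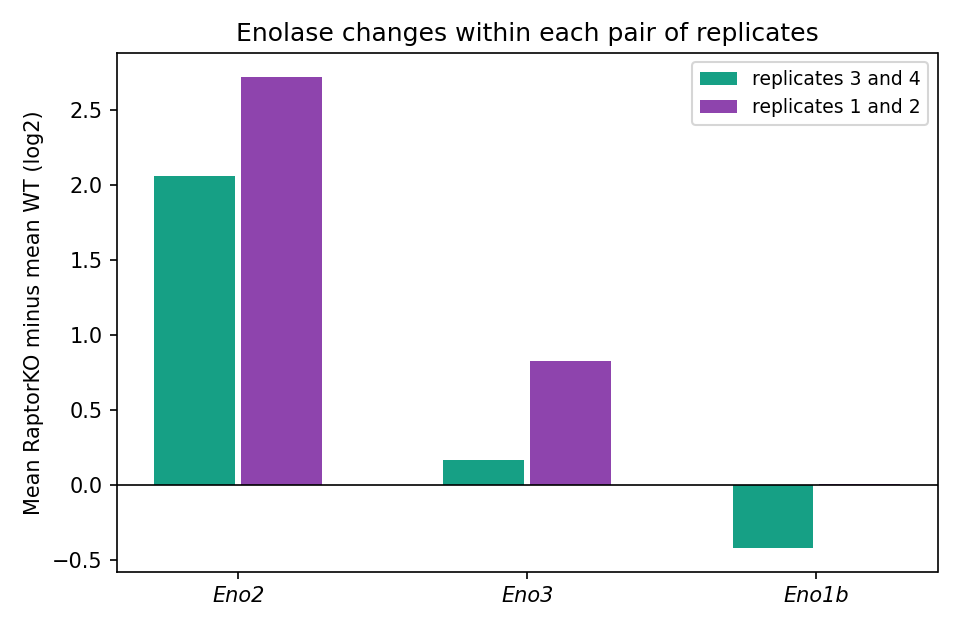
Bars give the mean RaptorKO signal minus the mean WT signal (log2) for Eno2, Eno3 and Eno1b, within replicates 3 and 4 (green, left) and within replicates 1 and 2 (purple, right), 2 arrays a group in each. The bars are 2.06 and 2.72 for Eno2, 0.17 and 0.83 for Eno3, and -0.42 and 0.0090 for Eno1b, whose second bar is too small to see.

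The other glycolytic transcripts differed by far less than Eno2. As Eno2 was picked for its rise, the largest of all genes tested, this gap is a description. A list of 28 glucose transporters, glycolytic enzymes, their regulators and lactate carriers, which leaves out the enolases, had 24 genes with a probe set and 22 tested. None was called in either direction in limma, a share from which little can be read where 1.96% of all genes were called. Their changes ran from -0.38 to 0.38, with 9 positive and 13 negative and a median of -0.06 beside -0.0092 for all genes tested. The enzymes next to enolase were Pgam2, the muscle form of phosphoglycerate mutase (-0.05, SE 0.13, adjusted p = 0.938), Pkm, the pyruvate kinase of most tissues (-0.30, SE 0.11, adjusted p = 0.239), and Pklr, that of liver and red cells (-0.06, SE 0.11, adjusted p = 0.899). No probe set here is paired with Pgam1. The ends of the range were Ldha, which makes lactate, at -0.38 (SE 0.09, adjusted p = 0.0689), and Pfkp, a phosphofructokinase, at 0.38 (SE 0.12, adjusted p = 0.162). Ldha was called with an intensity trend, with array weights, with probe sets of a gene averaged and with a 60th percentile filter.

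The isoenzymes of the other steps can be set beside the enolases. The 3 tested enolase probe sets spanned 2.60 on the log2 scale. The span was 0.53 for the phosphofructokinases Pfkl, Pfkm and Pfkp, 0.47 for the hexokinases Hk1, Hk2 and Hk3, 0.42 for Ldha and Ldhb, and 0.24 for Pkm and Pklr. For the aldolases it was 1.21, between Aldoa (0.04) and Aldoc (-1.17), which was too dim to be tested. As the enolases were picked for the rise of Eno2, their wider span is a description.

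**Figure D3:**
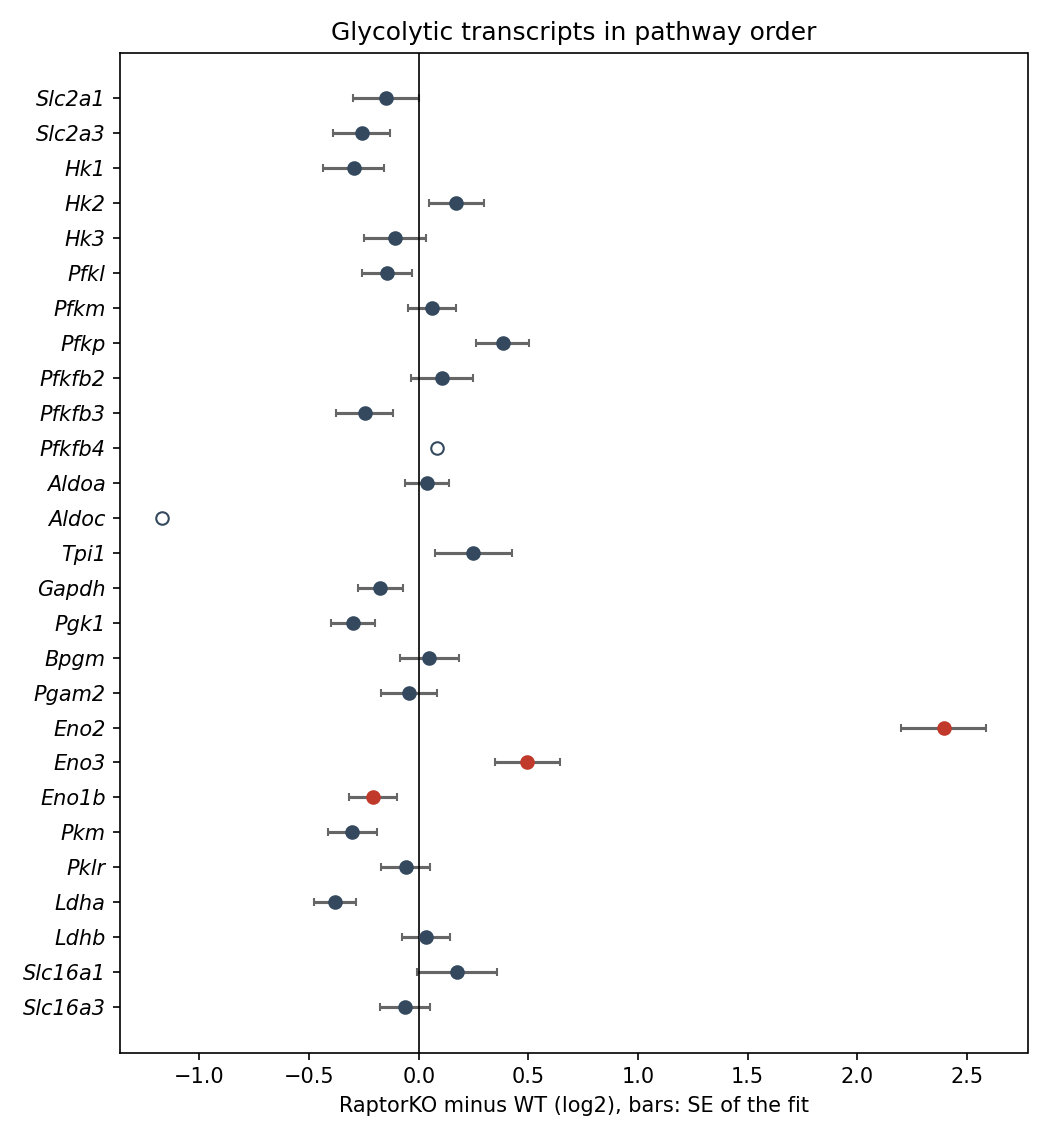
RaptorKO minus WT (log2, with the SE of the limma fit) for glycolytic transcripts in pathway order from glucose uptake at the top to lactate export. Enolase probe sets are red, the other genes dark, and open points were too dim to be tested. Eno2 stands at 2.39 and the 22 other tested genes that are not enolases lie between -0.38 and 0.38.

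Of 22 regulators and targets of the hypoxia-inducible factors, 17 were tested, and 2 were called higher and 1 lower, or 17.6% of those tested, where 0.824% of all genes were called higher and 1.14% lower. Ndrg1, a hypoxia- and stress-responsive gene, rose by 0.80 (6.92 ± 0.21 in RaptorKO and 6.12 ± 0.25 in WT, SD, n = 4; limma adjusted p = 0.0169). Car12, a membrane carbonic anhydrase, rose by 0.56 (limma adjusted p = 0.0277), and Hif1a, the oxygen-regulated subunit itself, fell by 0.54 (8.12 ± 0.05 in RaptorKO and 8.66 ± 0.16 in WT; limma adjusted p = 0.0209). The median over the list was -0.10, and 11 of the 17 changes were negative. The calls depended on single arrays, while the size of the Hif1a fall did not, at -0.62 to -0.50 whichever array was left out. Of the list, 0 were called without WT 3 or without WT 4, and 1 (Ndrg1) without RaptorKO 1 or RaptorKO 3. Hif1a was also not called without RaptorKO 4 or WT 1, nor Car12 without WT 2. Ddit4, an inhibitor of mTORC1 signalling, had the largest negative difference of the list (-0.64, limma adjusted p = 0.244); it was called with a term for the replicate sets, which made 4 calls.

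The genes beside Eno2 on the chromosome differed by far less than Eno2. This gap too is a description, since Eno2 was picked for its rise. All 10 protein-coding genes within 5 places on either side of Eno2 on chromosome 6, in the RefSeq order of GRCm38.p6, were tested and 0 were called in limma, with changes from -0.07 to 0.31. The nearest on each side were Atn1 (0.31, SE 0.13, adjusted p = 0.301), which encodes a transcriptional corepressor, and Lrrc23 (0.21, SE 0.11, adjusted p = 0.50), which encodes a leucine-rich repeat protein. Among them was Tpi1, the triosephosphate isomerase of glycolysis (0.25, SE 0.18, adjusted p = 0.641). Of the neighbours of Eno3 on chromosome 11, 6 of 10 were tested and 0 called, with changes from -0.20 for Pfn1, the actin-binding profilin next to it, to 0.22 for Kif1c. Spag7, on its other side, differed by 0.11. Around Eno1 on chromosome 4, 7 of 10 were tested and 0 called, with changes from -0.20 to 0.49. The highest, Tnfrsf9, which encodes the costimulatory receptor 4-1BB, differed by 0.49 (limma adjusted p = 0.133), as much as Eno3 itself. The nearest tested ones were Slc2a5, a fructose transporter (-0.10), and Rere (-0.20). Over all 3 neighbourhoods that made 0 of 23, where 1.96% of all genes were called.

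**Figure D4:**
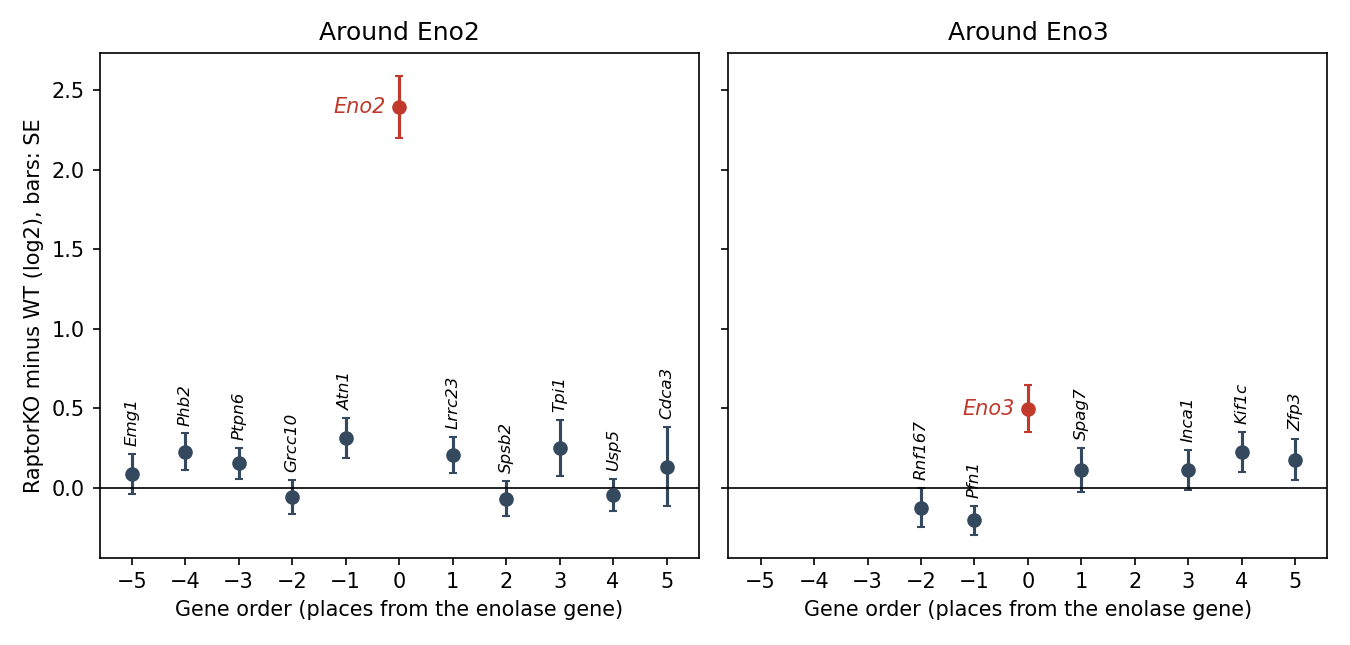
RaptorKO minus WT (log2, with the SE of the limma fit) for Eno2, Eno3 (red) and the tested protein-coding genes up to 5 places away on the chromosome (dark). The 10 neighbours of Eno2 lie between -0.07 and 0.31 while Eno2 is at 2.39, and the 6 neighbours of Eno3 lie between -0.20 and 0.22 while Eno3 is at 0.50.

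The genes most like each enolase were taken by Pearson's r of log2 signal over the 8 arrays, which share genotype groups and replicate sets. Predicted or clone-named genes and the enolases themselves were left out, also from the counts at the end. For Eno2 they were Rnf157, a ubiquitin ligase (r = 0.985, rho = 0.976), Abcb1a, a drug efflux pump (r = 0.98, rho = 0.976), and Stmn1, which destabilises microtubules (r = 0.979, rho = 0.952). As Eno2 separates the genotypes, these values mostly carry the genotype gap, and over deviations from the genotype means r was 0.902, 0.832 and 0.774. For Eno3 they were Cox4i1, a respiratory chain subunit (r = 0.972, rho = 0.952), the beta-tubulin Tubb5 (r = 0.971, rho = 0.929) and the ribosomal protein gene Rps26 (r = 0.97, rho = 0.952). Their changes were only 0.16, 0.11 and 0.14, and r was 0.958, 0.928 and 0.949 over deviations from the genotype means. For Eno1b they were the thromboxane receptor gene Tbxa2r (r = 0.975, rho = 0.976), Mrpl58 of the mitochondrial ribosome (r = 0.966, rho = 0.905) and the T cell kinase gene Prkcq (r = 0.964, rho = 0.952). No gene was named for more than 1 enolase, and r was above 0.9 for 92 genes with Eno2, 97 with Eno3 and 48 with Eno1b.

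The listed markers of neurons and muscle, the tissues for which the isoforms are known, differed little in mean between genotypes. The lists do not cover all genes known from these tissues, and some outside them passed in limma. Named after their values were seen, Nrgn (1.41, adjusted p = 0.000104), Dscam (1.08, adjusted p = 0.00119) and Nlgn2 (1.10, adjusted p = 0.00298), known from neurons, were higher in RaptorKO. Map6 (-1.08, adjusted p = 0.00119) and Nrn1 (-0.67, adjusted p = 0.0314), also known from neurons, were lower. The heart muscle troponin gene Tnnt2 was higher (1.34, adjusted p = 0.00696). How many such genes changed was not counted. Of 15 measured neuron markers, 7 stayed under the 40th percentile on every array, Tubb3, Snap25 and Uchl1 among them, and 6 exceeded it on every array, the brightest being Syp (6.54 ± 0.29 in RaptorKO and 6.69 ± 0.17 in WT, SD, n = 4 each). Of the 7 tested 0 were called, where 1.96% of all genes were. Their mean log2 signal was 4.57 to 4.69 in RaptorKO and 4.55 to 4.62 in WT; the difference in mean was 0.05. Of 14 muscle markers, 6 were under the percentile on every array, 6 above it on every array, and 0 of 7 tested were called, with means of 4.78 to 4.83 in RaptorKO and 4.77 to 4.85 in WT. The platelet list averaged 5.05 to 5.14 in RaptorKO and 5.10 to 5.19 in WT (0 of 5 tested called).

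Transcripts of other blood cells differed more in mean, though none on the lists passed in the limma fit without covariates. With the replicate number as a block, limma called the CD8 marker Cd8b1 (lower in RaptorKO, adjusted p = 0.016). It also called the macrophage marker C1qa (higher in RaptorKO, adjusted p = 0.0422). The counts below are those without covariates. The erythroid list averaged 5.67 to 5.91 in RaptorKO and 5.3 to 5.86 in WT (0 of 4 tested called). Of the 4 tested, 2 had a positive and 2 a negative difference, with a median of 0.03, so the list did not move as a whole. The globin gene Hba-a1, with the largest difference of the list, had 8.64, 9.19, 7.97 and 8.99 in RaptorKO 1 to 4, against 6.68, 7.47, 7.67 and 8.55 in WT 1 to 4. The Hba-a1 difference was 1.10 (SE 0.35, limma adjusted p = 0.159). Hbb-b2, a globin gene outside the list that was named after its values were seen, differed by 1.22 without overlap (8.41 ± 0.61 in RaptorKO and 7.19 ± 0.60 in WT, SD, n = 4 each; limma adjusted p = 0.0821). Macrophage markers were higher in mean in RaptorKO, with 8 of 8 tested positive and 0 called; their mean was 5.26 to 5.97 in RaptorKO and 4.61 to 5.61 in WT. Per array the macrophage mean was 5.26, 5.38, 5.94 and 5.97 in RaptorKO 1 to 4, against 4.61, 5.10, 5.61 and 5.6 in WT 1 to 4. Both CD8 markers had a lower mean in RaptorKO (6.08 to 7.03 against 6.32 to 8.07 in WT, 0 of 2 called), and the B cell list was 5.33 to 5.87 in RaptorKO and 4.89 to 6.03 in WT (0 of 4 called). The part of any of these cells in the differences of Eno2, Eno3 and Eno1b was not tested. In RNA of a sorted population, more cells with a transcript and more transcript per cell cannot be told apart.

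Of 12 regulatory T cell markers, 10 had a probe set and exceeded the 40th percentile on every array; 0 were called, where 1.96% of all genes were. The largest difference was that of Cd5, a receptor that tunes T cell receptor signalling (9.74 ± 0.05 in RaptorKO and 10.21 ± 0.21 in WT, SD, n = 4 each; -0.48, limma adjusted p = 0.0592). Foxp3, the lineage factor, ran from 10.96 to 11.04 in RaptorKO and from 10.79 to 10.96 in WT, and Il2ra, the CD25 chain used in the sort, averaged 11.36 ± 0.06 in RaptorKO and 11.33 ± 0.14 in WT (SD, n = 4 each). Cd4, whose promoter names the Cre, differed by -0.22 (limma adjusted p = 0.362). The targeted gene, Rptor, was 6.63, 6.47, 6.50 and 6.95 in RaptorKO 1 to 4, against 6.83, 6.85, 7.03 and 6.75 in WT 1 to 4, and did not pass (-0.23, SE 0.12, limma adjusted p = 0.491). RaptorKO 4 lay within the WT range for Rptor, yet its Eno2 signal, 7.54, was like that of RaptorKO 3 at 7.52. The position of this probe set against the floxed exons is not stated, so Rptor does not check the labels.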

How the data were processed

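Expression was measured on 8 single-channel arrays, 4 RaptorKO and 4 WT. The deposited values are log2 intensities per probe set that the authors made with RMA, as named without a version in the submitters' processing notes. RMA normalizes between arrays, and array medians lay between 5.21 and 5.29. The number of arrays limits the precision. Of 45141 probe sets, 28898 had 1 gene in the platform annotation, 551 several and 15692 none (104 controls among them); 28689 matched RefSeq by Entrez identifier. Each of 17097 genes was represented by its probe set with the highest mean, and 11413 above the 40th percentile of the array on at least 4 arrays were tested with limma 3.58.1 under R 4.3.3 (lmFit, then eBayes, without covariates; Benjamini-Hochberg adjusted p under 0.05). Unless a setting is named, adjusted p-values come from this fit over 11413 genes. Those for replicate sets, interactions or the replicate block come from fits with these terms. Those without single arrays come from fits in which the filter was applied anew. Additive and interaction terms for replicates 3 and 4 against 1 and 2 were fitted separately. Only the limma fits for genotype, replicate set and their interaction were tested on simulated data. Figures used matplotlib 3.10.9.

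The members, gene lists and tests were chosen with earlier results of these data known. Named were the enolases, Rptor, Foxp3, Il2ra and Cd4, called list members, the enzymes beside enolase, the list extremes, the nearest tested neighbours and the 3 genes most like each enolase. Where Eno1 was planned, the Eno1b probe set was used. Replicate numbers were not taken as pairs. The sources used here name no genome build for the array, so only start-site windows carry coordinates.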

Additional observations from a re-analysis of the deposited data

Results flagged for a closer look

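In WT, the Eno3 signal of replicate 2 (6.66) lay apart from the other 3 arrays (6.88, 6.90 and 6.90): the gap took up 0.927 of the range, above Dixon's 95% critical value for 4 samples. Chance alone gives about 1 such value in 20 groups, and 10 groups were looked at over the enolase probe sets. Without WT replicate 2 the Eno3 difference was 0.44, against 0.50 with it.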

How the results depend on the processing

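The Eno2 difference lay between 2.06 and 2.72 under 20 alternatives, 2.22 to 2.52 when single arrays were left out. Its sign is fixed by how the family was chosen. Some alternatives could not move it, as Eno2 has 1 probe set and each replicate number 1 array per genotype. These were the replicate block, averaged probe sets, no filter, the 60th percentile filter, the intensity trend and the set term, all at 2.39. The same alternatives could not move the Eno3 and Eno1b differences. Eno2 minus Eno1b, which carries the same rise, stayed between 2.45 and 2.73. The Eno3 difference came to 0.17 within replicates 3 and 4, to 0.83 in replicates 1 and 2, and to 0.38 to 0.61 without single arrays; that of Eno1b came to -0.42, 0.0090 and -0.27 to -0.16. These 2 settings apart, Eno3 and Eno1b moved by less than the replicate SD. The count of genes called, 224, was 370 with an intensity trend, 87 in replicates 3 and 4 alone, 13 in replicates 1 and 2 alone, and 98 (without WT 4) to 251 without single arrays; it also fell by over 1.5 times without RaptorKO 1 (133), RaptorKO 3 (144), WT 1 (121), WT 2 (149) or WT 3 (118). The glycolysis count, 0, became 1 with probe sets of a gene averaged, a 60th percentile filter, the intensity trend or array weights (Ldha), and with no filter or within replicates 3 and 4 (Aldoc); it was 0 without any single array. The hypoxia count, 3, was 4 with a term for the replicate sets, 1 with probe sets averaged, 0 to 3 without single arrays, and 0 within either set. With a replicate block 175 genes were called. Deviations of same-numbered samples from their genotype means were at most weakly correlated (r = 0.157, -0.153, 0.106 and 0.0259 for numbers 1 to 4). Such samples share the sex-linked pattern of their set, and what else they share is not given in the labels. In that block fit Hif1a (adjusted p = 0.0646) and Car12 (adjusted p = 0.0665) were not called, and Ddit4 was (adjusted p = 0.0192), which made 2 of the hypoxia list. Hif1a had limma adjusted p = 0.0801 at most without single arrays. The Eno1b fits and the within-set counts were chosen after seeing the data. The cause of these shifts was not tested. WT signal close to the 40th percentile limits the Eno2 fold.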

Other observations

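Aldoc, the aldolase best known from brain, was singled out after its values were seen. It had log2 signals of 3.36, 4.03, 4.16 and 3.80 in RaptorKO 1 to 4, against 5.11, 4.61, 5.3 and 5.01 in WT 1 to 4, so it ran opposite to Eno2 without overlap. The difference was -1.17 (3.84 ± 0.35 in RaptorKO and 5.01 ± 0.29 in WT, SD, n = 4 each). Only 3 arrays exceeded the 40th percentile and all 4 RaptorKO values lay below it, so it was not tested in the fit over 11413 genes, and the size is measured against dim signal. With no filter, limma called it.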
